A study of Mus musculus with 11 samples.

Results

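The genes described here are 6 genes of the fetal gene program of stressed cardiomyocytes, namely Nppa, Nppb, Myh6, Myh7, Acta1 and Ankrd1. They were chosen by name, and all 6 were found by symbol among the 25006 genes of the deposited count tables. All 6 passed edgeR's filter on low counts, as did 14779 genes in all. RNA was sequenced from the left ventricle of 11 mice, 1 library per mouse, to ask how the ventricle responds to myocardial infarction (MI, permanent ligation of a coronary artery) with and without Vegfc in myeloid cells. The MI libraries came from infarcted ventricular tissue collected 9 days after ligation, and the naive libraries from a matching area of unligated ventricles. The 4 groups were naive control (n = 2, libraries M44 and M45), naive Vegfc-deficient (n = 3, M149, M150 and M34), MI control (n = 3, M006, M38 and M40) and MI Vegfc-deficient (n = 3, M35, M900 and M913). The deficient mice were Vegfc fl/fl ; LysMCre, in which Cre recombinase is driven by the lysozyme M gene in macrophages, monocytes and neutrophils, so the deletion was not directed at cardiomyocytes. The genotype label gives the controls as Vegfc fl/fl, whereas the collection protocol gives them as LysMCre mice. Age and sex were not given in the sources used here.

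The fetal gene program is a set of genes that cardiomyocytes of the developing ventricle use, that the adult ventricle largely turns down, and that return under pressure load, stretch or injury. It includes the natriuretic peptides, hormones that promote salt excretion and vessel relaxation, and contractile isoforms such as the slow beta myosin heavy chain, which replaces part of the fast alpha myosin heavy chain in the stressed rodent heart. Natriuretic peptide transcripts are widely used as markers of wall stress.

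Sequence upstream of the members is shown because the program is described as being under shared factors. The windows are the 250 bases before the RefSeq start site on GRCm38.p6, 5′ to 3′ on the gene's strand, in lower case with motif matches in capitals. The motifs, searched on both strands and chosen after the sequences were seen, were CATTCC (the M-CAT core bound by TEAD factors, GGAATG on the other strand), GATAA (bound by GATA factors), TATAAA, and the CArG box bound by serum response factor. None of the matches overlapped another motif. Of 32851 such windows in the RefSeq table, 12.6% held the M-CAT core, 22.6% GATAA, 12.4% TATAAA and 1.47% a CArG box. The windows of Nppa (chr4:148000472-148000721, plus strand), Myh7 (chr14:54994627-54994876, minus strand) and Acta1 (chr8:123894776-123895025, minus strand) held no annotated exon of the gene and are given whole. That of Myh6 (chr14:54966642-54966857, minus strand) is given without the 34 bases that lie in an annotated exon. For Nppb (chr4:147985795-147985824, plus strand) and Ankrd1 (chr19:36119945-36119974, minus strand), whose windows overlap exons of longer transcripts, 30 bases around the M-CAT core are given.
Nppa: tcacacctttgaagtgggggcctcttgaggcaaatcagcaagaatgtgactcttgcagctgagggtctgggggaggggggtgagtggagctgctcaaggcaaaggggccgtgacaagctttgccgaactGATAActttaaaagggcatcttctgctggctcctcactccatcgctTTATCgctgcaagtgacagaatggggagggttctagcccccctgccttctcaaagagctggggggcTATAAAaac
Nppb: GGAATGcagctGATAAatcagaGATAAccc
Myh6: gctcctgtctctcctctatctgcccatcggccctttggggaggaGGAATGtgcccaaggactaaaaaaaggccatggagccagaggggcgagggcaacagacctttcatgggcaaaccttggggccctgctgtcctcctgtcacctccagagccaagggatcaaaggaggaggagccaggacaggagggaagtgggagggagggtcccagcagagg
Myh7: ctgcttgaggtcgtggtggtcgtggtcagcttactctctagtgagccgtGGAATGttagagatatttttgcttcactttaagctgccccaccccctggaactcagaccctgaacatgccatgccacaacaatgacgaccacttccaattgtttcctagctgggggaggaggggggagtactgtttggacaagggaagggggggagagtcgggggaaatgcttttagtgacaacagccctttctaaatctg
Acta1: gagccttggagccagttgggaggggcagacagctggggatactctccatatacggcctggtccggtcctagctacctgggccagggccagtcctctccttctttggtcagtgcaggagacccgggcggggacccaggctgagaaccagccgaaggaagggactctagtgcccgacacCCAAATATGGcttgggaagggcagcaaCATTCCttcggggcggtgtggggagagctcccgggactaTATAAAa
Ankrd1: taagtctGGAATGaaaattcacctgcctct

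The M-CAT core was in the windows of 5 members, Nppb, Myh6, Myh7, Acta1 and Ankrd1, and was found at 2 places in that of Ankrd1, but not in that of Nppa. GATAA was in the windows of Nppa, Nppb and Ankrd1, TATAAA in those of Nppa, Nppb and Acta1, and the CArG box in that of Acta1 alone. A second RefSeq start site of Myh7, with a window at chr14:54994550-54994799, held none of the motifs. These matches are a description of the letters and not of binding.

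Total counts were 10824989 to 26782728 per library. Vegfc was at 25.1 and 34.7 counts per 1000000 reads (CPM, with library sizes scaled by edgeR's TMM factors) in naive control, 27.4 to 34.5 in naive Vegfc-deficient, 21.9 to 45.5 in MI control and 22.4 to 29.4 in MI Vegfc-deficient libraries, so the genotypes overlapped in whole tissue. Lyz2, the gene that carries LysMCre, was at 1391, 203.2 and 12.4 CPM in MI Vegfc-deficient M35, M900 and M913, against 4536 to 5378 in MI controls. Among the libraries labelled naive Vegfc-deficient it was at 4563 CPM in M149, against 72.5 and 244.6 in M150 and M34. The naive controls had 2120 and 2281 CPM. For MI against naive Vegfc-deficient mice, calls or signs of members that changed without M149 are therefore also given. Results on the gene lists and relatives are not given without it. Every naive library had Y-linked transcripts (152.1 to 195.2 CPM over 4 genes) and every MI library had Xist (187.6 to 403.2 CPM), so sex and MI cannot be told apart in any comparison of MI with naive hearts. Labels do not say that the mice of a group were separate litters or batches, so p-values measure the spread between these mice.

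The share of cardiomyocyte RNA differed strongly between the naive and MI libraries, and every member is a cardiomyocyte gene. The summed level of 8 cardiomyocyte genes that served as a reference (Tnnt2, Tnni3, Tnnc1, Actc1, Mybpc3, Actn2, Ttn and Tcap) was 42980 to 56830 CPM in the naive libraries. In the MI libraries it was 2147 in M40, 4193 in M900, 6625 in M006, 8156 in M913, 9567 in M38 and 17060 in M35. The summed level of 7 fibroblast markers was 4463 to 6186 CPM in naive and 28250 to 45190 CPM in MI libraries, and that of 7 macrophage markers 1424 to 2180 and 1933 to 4580 CPM. By edgeR, 5 and 6 of the fibroblast markers were called higher in control and Vegfc-deficient mice, and 0 lower. Of the macrophage markers 3 and 4 were called higher and 0 lower, beside 3882 and 4432 of all 14779 genes called higher. The fibroblast marker Dcn overlapped, at 3025 to 3950 CPM in naive and 3188 to 4616 CPM in MI libraries. So did the macrophage marker Mrc1, at 114.0 to 223.4 and 108.5 to 160.1 CPM. In these bulk samples, fewer cardiomyocytes and less RNA per cardiomyocyte cannot be told apart. Each member is therefore given on both scales, as TMM-scaled CPM, a share of all RNA, and as reads per 1000 reads of the 8 reference genes in the same library.

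Nppa, which encodes atrial natriuretic peptide (ENSMUSG00000041616, chromosome 4, 148000722 to 148002079), was the member that rose with MI on both scales. It was at 415.9 CPM in M44 and 466.3 in M45 of the naive controls, and at 512.8, 1240 and 386.8 in M149, M150 and M34 of the naive Vegfc-deficient mice. The MI libraries held 1406, 3282 and 1423 CPM in M006, M38 and M40 of the controls and 5808, 1987 and 2175 in M35, M900 and M913 of the Vegfc-deficient mice. Every MI library lay above every naive library, with M150 the highest of the naive and M35 the highest of all. How many of all genes separated in this way in CPM was not counted. The log2 fold change of MI against naive was 2.21 in control mice (SE 0.67, adjusted p = 0.0199, edgeR quasi-likelihood, Benjamini-Hochberg) and 2.22 in Vegfc-deficient mice (SE 0.58, adjusted p = 0.00783, same test). The call in control mice was lost without M44 (adjusted p = 0.114, same edgeR test), without M45 (0.0972) and without MI control M38 (0.0649), and that in Vegfc-deficient mice was kept without M149 (0.0287). Of the 865 exon bases of Nppa, 532 are also exon of Gm13054 on the opposite strand, which was not analysed here.

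Nppb, which encodes brain natriuretic peptide, the other ventricular hormone of the family (ENSMUSG00000029019, chromosome 4, 147985788 to 147987205), lies beside Nppa on the same strand but did not move with it as a share of all RNA. It was at 578.5 and 683.8 CPM in naive controls M44 and M45 and at 677.7, 1002 and 625.6 in naive Vegfc-deficient M149, M150 and M34. Nppb stood after MI at 296.0, 396.8 and 209.7 CPM in controls M006, M38 and M40 and at 591.2, 274.6 and 387.7 in Vegfc-deficient M35, M900 and M913. Within each genotype all MI libraries lay below all naive libraries. The share of all genes that did so was not counted. Nppb fell by 1.07 on the log2 scale in control mice (SE 0.35, adjusted p = 0.0282, edgeR quasi-likelihood, Benjamini-Hochberg) and by 0.88 in Vegfc-deficient mice (SE 0.32, adjusted p = 0.0386, same test), although relative to the 8 cardiomyocyte genes it rose. The fall was not called with library totals in place of TMM factors (adjusted p = 0.113 and 0.291, same edgeR test), nor when any 1 of M44, M45, M006 and M40 was left out in control mice (adjusted p of 0.0715 to 0.142) or any 1 of M44, M45, M006, M150, M913 and M900 in Vegfc-deficient mice (0.0547 to 0.147), and it was kept without M149 (0.0466).

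The balance between the peptides can be read within a library, free of scaling. Nppa reads per kb of exon were 0.649 and 0.616 times those of Nppb in naive controls M44 and M45, and 0.683, 1.12 and 0.558 times in naive Vegfc-deficient M149, M150 and M34. After MI the ratio was 4.29, 7.47 and 6.13 in controls M006, M38 and M40 and 8.87, 6.53 and 5.07 in Vegfc-deficient M35, M900 and M913. The MI libraries thus held more Nppa than Nppb per kb without exception, and all naive libraries but M150 held less. This ratio was noted after the values were seen and was not tested.

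Myh6, the fast alpha myosin heavy chain of the adult mouse ventricle (ENSMUSG00000040752, chromosome 14, 54941921 to 54966927), fell the most of the members. It was at 5160 and 5303 CPM in naive controls M44 and M45 and at 3690, 5661 and 4080 in naive Vegfc-deficient M149, M150 and M34. Infarcted control ventricles M006, M38 and M40 held 535.2, 948.4 and 139.4 CPM, and 1857, 323.7 and 896.6 were found in Vegfc-deficient M35, M900 and M913. Every MI library lay below every naive library, with M40 the lowest and M35 the highest of the MI libraries, the same pair that marked the ends of the range of cardiomyocyte RNA. Here too the share of all genes that separated was not counted. Myh6 fell by 3.27 on the log2 scale in control mice (SE 0.77, adjusted p = 0.00583, edgeR quasi-likelihood, Benjamini-Hochberg) and by 2.13 in Vegfc-deficient mice (SE 0.70, adjusted p = 0.0243, same test). The latter call was lost with library totals (adjusted p = 0.0520, same edgeR test) and without M150 (0.0677), M913 (0.0814) or M900 (0.0705), and was kept without M149 (0.0329).

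Myh7, the slow beta myosin heavy chain of the fetal ventricle (ENSMUSG00000053093, chromosome 14, 54970684 to 54994626), lies next to Myh6 and did not pass the test as a share of all RNA. It was at 293.4 and 310.9 CPM in naive controls M44 and M45 and at 244.0, 494.5 and 303.9 in naive Vegfc-deficient M149, M150 and M34. Myh7 stood after MI at 200.3, 293.5 and 62.3 CPM in controls M006, M38 and M40 and at 660.6, 172.1 and 232.6 in Vegfc-deficient M35, M900 and M913. The MI and naive groups overlapped in both genotypes, in control mice only by M38 and M44, with M40 lowest and M35 highest of all libraries. The log2 fold change was -0.71 in control mice (SE 0.64, adjusted p = 0.382, edgeR quasi-likelihood, Benjamini-Hochberg) and 0.03 in Vegfc-deficient mice (SE 0.58, adjusted p = 0.967, same test), or -0.17 without M149.

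Relative to each other, the myosin genes moved apart. Per kb of exon, Myh7 was at 0.0444 and 0.0458 of Myh6 in naive controls M44 and M45 and at 0.0516, 0.0682 and 0.0582 in naive Vegfc-deficient M149, M150 and M34. After MI the ratio was 0.292, 0.242 and 0.349 in controls M006, M38 and M40 and 0.278, 0.415 and 0.203 in Vegfc-deficient M35, M900 and M913. Put as a share of the reads on both genes, Myh7 took 5.38% to 8.03% in naive and 20.6% to 34.7% in MI libraries, so Myh6 remained the larger of the pair in every library. Over both genotypes the ratio was 5.45-fold higher in the 6 MI than in the 5 naive libraries (log2 difference 2.45, p = 0.00433 by a two-sided exact permutation test, the smallest value these libraries allow, adjusted p = 0.0217 over 5 comparisons by Benjamini-Hochberg).

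Within genotypes the shift had the same direction, 6.45-fold in control mice (exact permutation p = 0.2, the smallest that 3 against 2 libraries allow) and 4.85-fold in Vegfc-deficient mice (exact permutation p = 0.1, the smallest that 3 against 3 allow). Between the genotypes after MI the log2 difference was -0.03 (exact permutation p = 0.9), with an SD of 0.26 among control and 0.52 among Vegfc-deficient libraries. In naive hearts it was 0.39 (exact permutation p = 0.2, the smallest allowed), and all 3 Vegfc-deficient libraries, M149 included, lay above both controls. Leaving out each library in turn gave a pooled log2 difference of 2.34 to 2.55. Of the 50-base stretches of Myh6 transcripts, 20.2% also occur in Myh7 transcripts, as do 15.6% the other way, so reads from these stretches cannot be assigned to either gene with certainty, and how the authors counted them is not given in the sources used here.

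**Figure D1:**
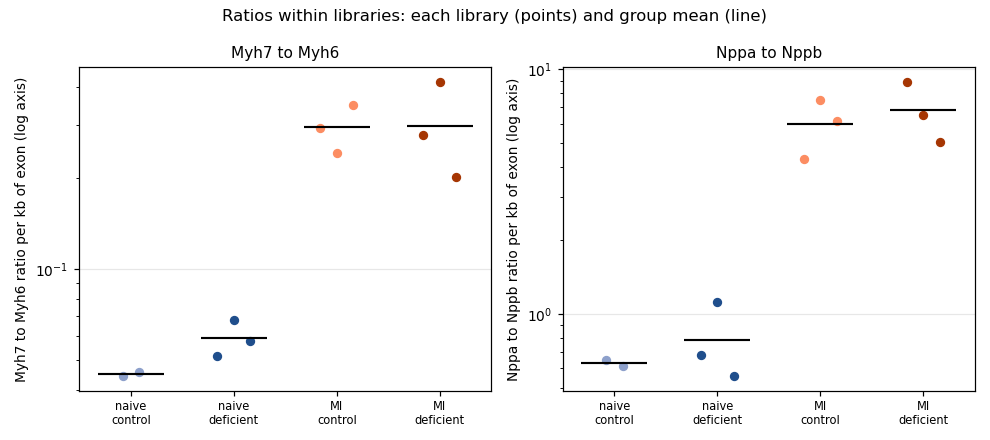
Ratio of Myh7 to Myh6 (left) and of Nppa to Nppb (right), each per kb of exon on a log axis, for each library (points) with the group mean (line), in naive and MI hearts of control and Vegfc-deficient mice. The MI libraries lie at 0.203 to 0.415 for the myosin ratio and at 4.29 to 8.87 for the peptide ratio, the naive libraries at 0.0444 to 0.0682 and at 0.558 to 1.12.

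Acta1, the skeletal muscle alpha-actin that the fetal and stressed ventricle also uses (ENSMUSG00000031972, chromosome 8, 123891769 to 123894751), varied widely within groups. It was at 193.4 and 505.7 CPM in naive controls M44 and M45 and at 342.5, 897.1 and 419.8 in naive Vegfc-deficient M149, M150 and M34. In infarcted ventricles Acta1 was at 268.8, 375.1 and 38.7 CPM in controls M006, M38 and M40 and at 440.8, 125.4 and 493.5 in Vegfc-deficient M35, M900 and M913. The MI and naive groups overlapped in both genotypes. The log2 fold change was -0.62 in control mice (SE 0.84, adjusted p = 0.557, edgeR quasi-likelihood, Benjamini-Hochberg), which became 0.24 without M45, and -0.65 in Vegfc-deficient mice (SE 0.76, adjusted p = 0.484, same test). Of its 50-base stretches, 2.02% also occur in other genes.

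Ankrd1, a titin-associated repeat protein of the sarcomere and nucleus that responds to stretch (ENSMUSG00000024803, chromosome 19, 36111961 to 36120099), was not called either. It was at 1597 and 1980 CPM in naive controls M44 and M45 and at 1450, 2238 and 2144 in naive Vegfc-deficient M149, M150 and M34. The MI values of Ankrd1 were 1198, 1611 and 497.8 CPM in controls M006, M38 and M40 and 2943, 1098 and 1679 in Vegfc-deficient M35, M900 and M913. M40 was again the lowest and M35 the highest library, and the groups overlapped in both genotypes. The log2 fold change was -0.70 in control mice (SE 0.50, adjusted p = 0.263, edgeR quasi-likelihood, Benjamini-Hochberg) and -0.03 in Vegfc-deficient mice (SE 0.45, adjusted p = 0.963, same test).

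**Figure D2:**
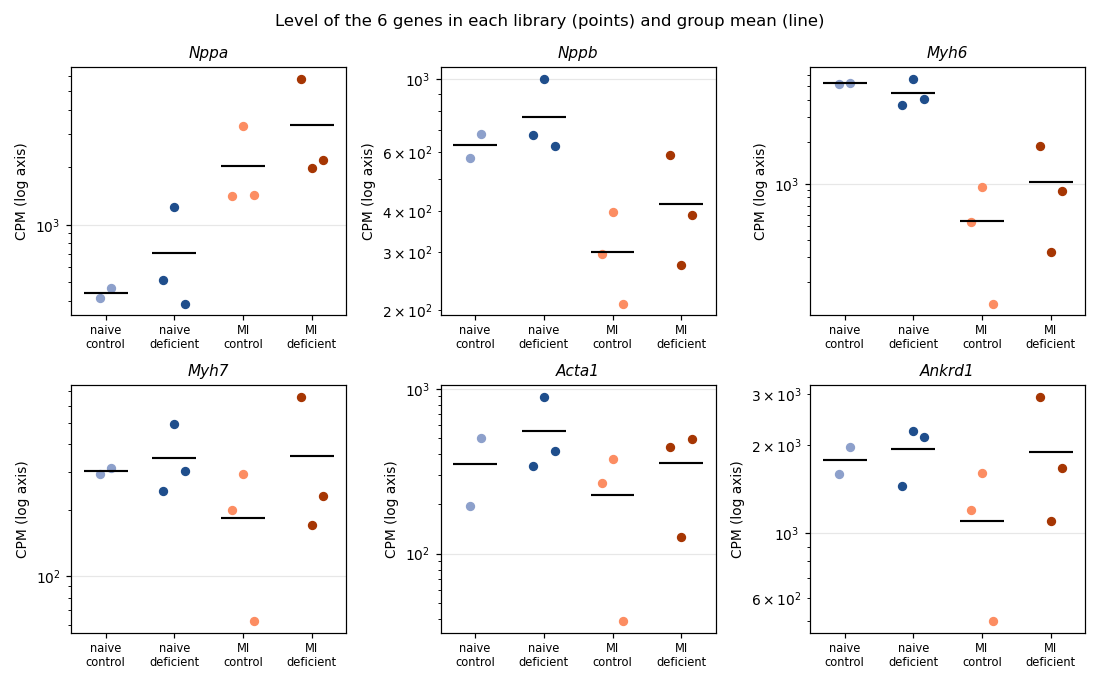
Level of the 6 members in TMM-scaled CPM on a log axis, for each library (points) with the group mean (line), in naive and MI hearts of control and Vegfc-deficient mice. Nppa is higher in all MI than in all naive libraries and Myh6 lower, whereas Nppb, which rises on the scale of cardiomyocyte genes, is lower after MI here, and Myh7, Acta1 and Ankrd1 overlap. The number of all genes that separate like Nppa and Myh6 was not counted.

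As a share of all RNA, 3 of the 6 members were thus called with MI in control mice, 1 higher (Nppa) and 2 lower (Nppb and Myh6), in a comparison in which 50.4% of all genes tested were called. The same 3 members were called in the same directions in Vegfc-deficient mice, where 57.7% of all genes were called. These shares are near the background. The median log2 fold change of the members was -0.70 in control and -0.34 in Vegfc-deficient mice, beside 0.13 and 0.10 over all genes tested, which library totals in place of TMM factors moved to 0.57 and 0.59.

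Relative to the 8 cardiomyocyte genes, Nppa stood apart from Myh6 at the other end, with Nppb, Myh7, Acta1 and Ankrd1 between them. Nppa was at 7.86 to 21.8 reads per 1000 reference reads in the naive libraries. The MI libraries held 212.2, 343.0 and 662.6 in controls M006, M38 and M40 and 340.5, 473.9 and 266.7 in Vegfc-deficient M35, M900 and M913. Library M40, with the least cardiomyocyte RNA, had the highest relative Nppa.

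On the same scale Ankrd1 was at 32.8 to 43.6 reads per 1000 reference reads in naive libraries, at 168.4 to 231.8 in MI controls and at 172.5 to 261.9 in MI Vegfc-deficient libraries. Myh7 was at 5.68 to 8.70, then at 29.0 to 30.7 and 28.5 to 41.1 after MI, with a spread among MI controls of 0.870 (SD, n = 3) around a mean of 30.0. These were the narrowest relative values of any member among MI controls, in contrast to the 62.3 to 293.5 CPM of the same gene in the same libraries. Nppb was at 11.9 to 17.6, then at 41.5 to 97.7 and 34.7 to 65.5, and Acta1 at 3.97 to 15.8, then at 18.0 to 40.6 and 25.8 to 60.5. For each of Nppa, Nppb, Myh7, Acta1 and Ankrd1, every MI library lay above every naive library on this scale. How many of all genes separated in this way was not counted. In the edgeR test on this scale, 13377 and 12346 of 14779 genes were called higher in control and Vegfc-deficient mice. A rise on this scale was therefore not particular to the members.

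Myh6 did not pass the test on this scale. It was at 82.9 to 106.0 reads per 1000 reference reads in the naive libraries, at 80.8, 99.1 and 64.9 in MI controls M006, M38 and M40 and at 108.9, 77.2 and 109.9 in MI Vegfc-deficient M35, M900 and M913. All 3 MI controls lay below both naive controls, and the groups overlapped in Vegfc-deficient mice.

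**Figure D3:**
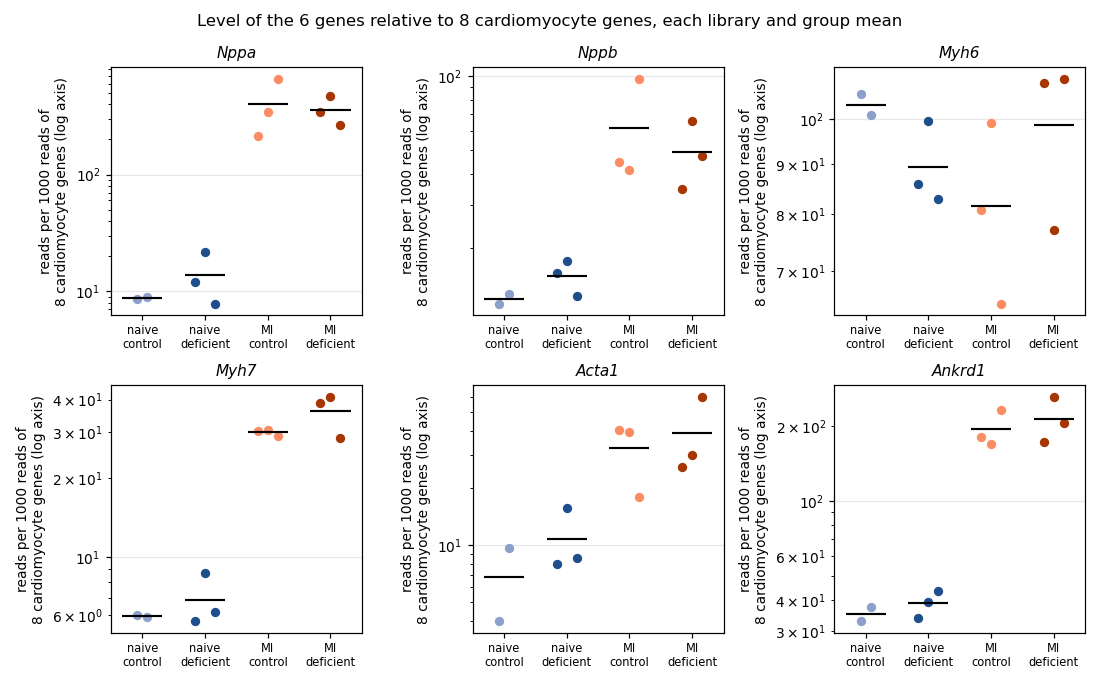
Reads of the 6 members per 1000 reads of the 8 cardiomyocyte reference genes in the same library, on a log axis, for each library (points) with the group mean (line). All MI libraries lie above all naive libraries for Nppa, Nppb, Myh7, Acta1 and Ankrd1, whereas the CPM of Nppb is lower after MI and that of Myh7, Acta1 and Ankrd1 was not called, and Myh6 stays between 64.9 and 109.9. In the edgeR test on this scale, 13377 and 12346 of 14779 genes were called higher in control and Vegfc-deficient mice.

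In edgeR's quasi-likelihood test scaled to the reference genes, 5 of the 6 members were called higher with MI in control mice. The log2 fold change was 5.54 for Nppa (SE 0.87), 2.46 for Ankrd1 (SE 0.72), 2.33 for Myh7 (SE 0.78), 2.30 for Nppb (SE 0.78) and 2.26 for Acta1 (SE 0.81), with adjusted p of 1.60e-05, 0.00203, 0.00581, 0.00632 and 0.00960 (edgeR, Benjamini-Hochberg). That of Myh6 was -0.34 (SE 0.66, adjusted p = 0.619, same edgeR test). On this scale 90.6% of all genes were called and the median of all genes was 3.73, and the number of members called is near that background. Without naive control M44 only Nppa was called, and without M45 only 3 members.

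In Vegfc-deficient mice the same 5 members were called higher, with log2 fold changes of 4.70 for Nppa (SE 0.70), 2.46 for Ankrd1 (SE 0.62), 2.40 for Myh7 (SE 0.67), 1.85 for Acta1 (SE 0.69) and 1.68 for Nppb (SE 0.65), and 83.8% of all genes were called with a median of 2.88. Myh6 was at 0.14 (SE 0.59, adjusted p = 0.826, edgeR quasi-likelihood, Benjamini-Hochberg). Without M149 the calls of Nppb and Acta1 were lost (adjusted p = 0.0664 and 0.0748, same edgeR test), as they were without M34 (0.0944 and 0.0740), and 3 members were called in each case. Of all genes tested, the median exceeded every member but Nppa in both genotypes.

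The contractile partners of the adult ventricle, structural genes of the cardiomyocyte, give a second background for the members. Of 15 such genes, 15 were called lower as a share of all RNA in control mice, with a median log2 fold change of -2.69, and 13 in Vegfc-deficient mice, with a median of -2.18. Of all 14779 genes tested, 3568 and 4089 were called lower in control and Vegfc-deficient mice. Among the largest falls were Tnni3 (cardiac troponin I, -3.54 and -3.20), Myl3 (ventricular essential light chain, -3.16 and -3.24) and Myl2 (ventricular regulatory light chain, -3.46 and -2.74). Relative to the reference genes, 7 of which are in this list, 0 of the 15 were called in either genotype, with medians of 0.36 and 0.28. Myh6 lay near these partners on both scales, and the other 5 members lay above their median on both. Changes of reference genes, filter or threshold gave Myh6 -0.34 to -0.008 in control mice on the second scale. In Vegfc-deficient mice they gave 0.14 to 0.76. The partners were not compared with the members under these changes. Of the 6 further cardiomyocyte markers, Myl2, Myl3, Ryr2, Atp2a2, Pln and Mb, all 6 were called lower as a share of all RNA in both genotypes, with medians of -3.22 and -2.79.

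**Figure D4:**
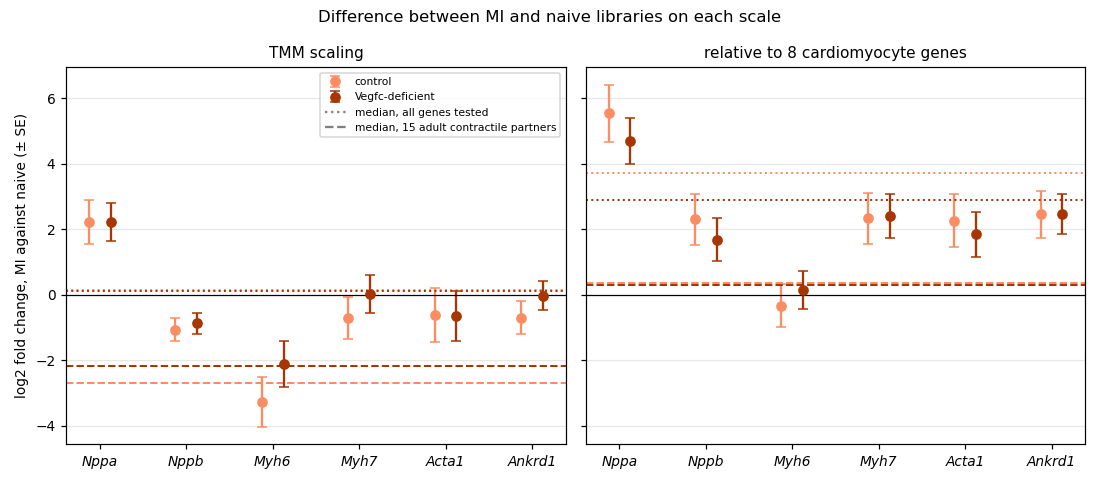
Log2 fold change of MI against naive for the 6 members (points, bars are SE of the fit) in control and Vegfc-deficient mice, with TMM scaling (left) and relative to the 8 cardiomyocyte genes (right). Dotted lines give the median over all genes tested and dashed lines that over 15 adult contractile partners. Nppb is below 0 on the left and above 0 on the right, Nppa is above both medians on both sides, and Myh6 lies near the partner median.

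Per kb of exon, where levels of different genes can be compared, the order of the members changed with MI. In naive controls Nppb led with a mean of 808.1 CPM per kb, followed by Myh6 at 777.8, Ankrd1 at 619.7, Nppa at 509.9, Acta1 at 227.6 and Myh7 at 35.1 (n = 2 each). The ranges of Nppb and Myh6 overlapped, and those of Ankrd1 and Nppa did not. In MI controls Nppa led with 2355 ± 1246 CPM per kb, followed by Nppb at 385.2 ± 119.9, Ankrd1 at 381.9 ± 194.9, Acta1 at 148.1 ± 111.9, Myh6 at 80.4 ± 60.1 and Myh7 at 21.5 ± 13.5 (SD, n = 3 each). Nppa lay apart from Nppb, with a lowest library of 1625 against a highest of 508.0. Among the members below Nppa, each overlapped its neighbour in that order. In naive Vegfc-deficient mice the order was Nppb (983.8 ± 260.9), Nppa (824.4 ± 532.2), Ankrd1 (673.5 ± 149.2), Myh6 (665.6 ± 155.2), Acta1 (360.1 ± 195.6) and Myh7 (40.3 ± 15.2), and among these Acta1 and Myh7 alone did not overlap as neighbours. In MI Vegfc-deficient mice the order was Nppa (3842 ± 2490), Ankrd1 (660.7 ± 326.8), Nppb (535.0 ± 205.4), Acta1 (229.9 ± 129.6), Myh6 (152.5 ± 115.2) and Myh7 (41.2 ± 30.9, SD, n = 3 each). There Nppa lay apart from Ankrd1 and Nppb from Acta1, and the other neighbours overlapped.

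Loss of Vegfc in myeloid cells was asked about by comparing the genotypes after MI. All 6 members had a higher mean in MI Vegfc-deficient than in MI control libraries, and none passed the test. The log2 fold change was 0.94 for Myh7 (SE 0.59), 0.92 for Myh6 (SE 0.68), 0.79 for Ankrd1 (SE 0.45), 0.71 for Nppa (SE 0.55), 0.63 for Acta1 (SE 0.76) and 0.47 for Nppb (SE 0.32), with adjusted p of 0.676 to 0.866 (edgeR quasi-likelihood, Benjamini-Hochberg). Of all genes, 0 were called (0.0%), 1173 had an unadjusted p under 0.05, and DESeq2 called 51. In each of the 6 genes the groups overlapped. These values rested on single libraries: without M35 they were 0.13 for Myh7, 0.17 for Myh6, 0.33 for Ankrd1, 0.03 for Nppa and 0.14 for Nppb, Acta1 was at 0.13 without M40, and without M38 all 6 were higher, at 0.76 (Nppb) to 1.66 (Myh6). The 15 contractile partners had a median of 0.52 in the same comparison, and the reference genes one of 0.56. The part of cardiomyocyte RNA in these differences was not tested beyond the second scale.

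Relative to the reference genes, the members differed between the MI genotypes by -0.32 (Nppb), -0.17 (Nppa), 0.14 (Ankrd1), 0.25 (Acta1), 0.27 (Myh7) and 0.27 (Myh6) on the log2 scale, with SE of 0.58 to 0.67 and adjusted p of 0.676 to 0.837 (edgeR quasi-likelihood, Benjamini-Hochberg). Of all genes 0.0677% were called on this scale, none of them a member. The signs of Nppa and Nppb thus turned with the scale.

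In naive hearts the log2 difference between the genotypes was 0.69 for Nppa (SE 0.63), 0.66 for Acta1 (SE 0.86), 0.28 for Nppb (SE 0.36), 0.20 for Myh7 (SE 0.65), 0.12 for Ankrd1 (SE 0.50) and -0.22 for Myh6 (SE 0.75), each with an adjusted p of 1 (edgeR quasi-likelihood, Benjamini-Hochberg). Of all genes 0.0% were called, with 499 at an unadjusted p under 0.05, 14 called by DESeq2, and by edgeR 17 without M149, 2 without M40 and 1 without M38. Without M150 the difference was 0.03 for Nppa, 0.12 for Acta1, 0.05 for Nppb, -0.14 for Myh7 and -0.43 for Myh6. Over all libraries left out in turn it ranged up to 0.99 for Nppa (without M34) and 1.51 for Acta1 (without M45). Library M150 was the highest naive library in each member and also had the most reference RNA. The response to MI did not pass the test of a difference between genotypes for any member, with interaction values from -0.03 for Acta1 to 1.15 for Myh6 and adjusted p of 0.770 to 0.998 (edgeR contrast, Benjamini-Hochberg), where 0.0% of all genes were called, 1226 had an unadjusted p under 0.05, and DESeq2 called 55. The naive and MI comparisons of a genotype share libraries with these contrasts.

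Other cells that can use the members were looked for by their markers. Of 6 markers of atrial cardiomyocytes, which hold much Nppa, the summed level was 57.2 to 71.4 CPM in naive and 27.3 to 36.4 CPM in MI libraries. Stard10 made up most of that sum, at 47.2 to 59.9 CPM in naive and 12.8 to 22.1 CPM in MI libraries, and was the marker called lower in both genotypes as a share of all RNA. Nr2f1 was at 2.42 to 3.08 CPM in naive and 3.998 to 5.581 CPM in MI libraries. It was called higher in Vegfc-deficient mice (log2 fold change 1.03) and not called in control mice (0.55). The test of a difference in response between genotypes called 0 of the 4 atrial markers tested, Nr2f1 included, and 0 of all 14779 genes. Myl4, at 4.01 to 5.62 and 5.09 to 8.84 CPM, and Myl7, at 1.25 to 6.16 and 1.12 to 4.66 CPM, were not called. Bmp10 was at most 0.124 CPM and Sln at most 1.47 CPM in any library, and neither was tested. Relative to the reference genes 4 and 2 of the 4 markers tested were called higher in control and Vegfc-deficient mice. Of all genes, 90.6% and 83.8% were called on that scale, with medians of 3.73 and 2.88. The atrial markers tested had medians of 3.73 and 2.57. Their part in the result on Nppa was not tested. The 12 skeletal muscle markers summed to 21.3 to 39.1 CPM in naive and 22.4 to 42.2 CPM in MI libraries, with Tnnc2 at 0 in all 11 and Myh1, Myh2 and Myh4 at most 0.484 CPM. Of the 7 tested, 2 were called higher and 1 lower as a share of all RNA in each genotype. Of all genes 50.4% and 57.7% were called in that test. Relative to the reference genes 6 of the 7 were called higher in each genotype, beside 90.6% and 83.8% of all genes called. Pvalb went from at most 0.325 CPM in naive to 1.12 to 16.3 CPM in MI libraries, Tnnt3 from at most 1.57 CPM to at least 2.16 CPM, and Mylpf, called lower, from at least 4.31 CPM to at most 2.31 CPM. Acta1 was far above the fast skeletal myosins in every library.

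The relatives of the members moved in different ways. Mhrt, a noncoding RNA transcribed from the opposite strand of the Myh7 locus (chromosome 14, 54968678 to 54974349), went from 22.9 and 24.5 CPM per kb in naive control and 27.1 to 49.7 in naive Vegfc-deficient libraries to 0.272 to 3.90 and 1.04 to 4.36 after MI (log2 fold change -3.31, SE 0.75, and -3.69, SE 0.72, adjusted p = 0.00486 and 0.00162, edgeR quasi-likelihood, Benjamini-Hochberg). Its exons share 484 bases with those of Myh7, and whether the counting used strand is not given in the sources used here. Myh7b, a slow myosin heavy chain on chromosome 2, had log2 fold changes of -3.04 and -2.68 in control and Vegfc-deficient mice. Those of Actc1, the cardiac actin, were -3.10 and -1.83, and those of Ankrd23, a repeat protein of the Ankrd1 family, -1.87 and -1.93. All 3 were called lower by the same test as a share of all RNA, whereas relative to the reference genes none of the 3 nor Mhrt was called. Actc1 is itself a reference gene, so its own reads set part of that scale. Its result there therefore cannot show whether it changed relative to other cardiomyocyte genes. Ankrd23, of the Ankrd1 family, had 1.31 and 0.54 relative to the reference genes. Ankrd2, another of that family, was at most 3.50 CPM, with -1.29 (adjusted p = 0.0819, not called) and -2.72 (adjusted p = 0.000825, edgeR). Acta2, the smooth muscle actin also used by myofibroblasts, rose by 2.63 and 2.49 on the log2 scale. The 5 smooth muscle markers summed to 201.5 to 337.1 CPM in naive and 643.9 to 2506 CPM in MI libraries. Acta2 is 1 of these markers, so the sum is not separate from its rise. Of the 5, 4 were called higher in each genotype, beside 3882 and 4432 of all 14779 genes. The marker Smtn was at 49.5 to 78.6 CPM in naive and 52.7 to 79.6 CPM in MI libraries.

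Among 11 genes that process, bind or transmit natriuretic peptides, 3 were called higher and 3 lower in control mice, and 5 and 4 in Vegfc-deficient mice, with medians of 0.01 and -0.01. Corin, the protease that activates the Nppa product, fell with log2 fold changes of -2.32 and -1.73, and Mme, the neprilysin that degrades the peptides, with -1.79 and -2.18, both in control and Vegfc-deficient mice as a share of all RNA, while relative to the reference genes they were at 0.84 and 0.67 and at 1.52 and 0.57 and not called. Prkg1, the cyclic GMP-dependent kinase downstream of the receptors, rose by 1.17 and 0.93 on the log2 scale, and Furin, which cleaves the Nppb precursor, by 0.81 and 1.03. The signalling receptor Npr1 had log2 fold changes of -0.24 and -0.01 and was not called. Npr3, the clearance receptor, was at 0.01 in control mice, not called, and fell by 0.52 in Vegfc-deficient mice. Relative to the reference genes it was at 3.52 and 2.27, below the medians of all genes on that scale, 3.73 and 2.88. Nppc, the C-type peptide of the family, was at 1.48, not called, in control mice and rose by 2.53 in Vegfc-deficient mice. Its level was low, with 1 or 2 counts (at most 0.242 CPM) in each naive library and 0.176 to 1.22 CPM in MI libraries. The receptor Npr2 was at 0.18, not called, in control mice and rose by 0.59 in Vegfc-deficient mice. The test of a difference in response between genotypes called 0 of these 11 genes and 0 of all 14779 genes. Its result is therefore not particular to them.

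Of 18 other re-expressed or alternative contractile isoforms 16 were tested, of which 8 rose and 4 fell in control mice and 7 and 5 in Vegfc-deficient mice, with medians of 0.69 and 0.58. Among those that rose, Actn1 (a nonmuscle alpha-actinin, by 2.70 and 3.04) and Acta2, are known from cells other than cardiomyocytes. Of 24 stretch and hypertrophy genes 5 rose and 12 fell in control mice and 6 and 10 in Vegfc-deficient mice, with medians of -1.27 and -0.71 that became 2.14 and 1.84 relative to the reference genes. Ccn2 and Ccn1, matricellular proteins that fibroblasts also make, rose by 3.72 and 3.29 and by 2.94 and 2.74, whereas Csrp3, a muscle LIM protein of the Z-disc, had -3.01 and -2.43, and 0.05 and -0.08 relative to the reference genes. Of 8 early response genes 5 rose in each genotype and 0 fell, led by Fosb (2.34 and 3.17) and Fos (2.16 and 1.77). Fosb was at a low level, at most 0.357 CPM in naive and 0.811 to 1.89 CPM in MI libraries.

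Of 32 regulators of the program 8 rose and 10 fell in control mice and 10 and 9 in Vegfc-deficient mice, with medians of -0.02 and 0.12. Hopx, a homeodomain cofactor of cardiomyocytes, had log2 fold changes of -3.54 and -3.42 and Nkx2-5, a cardiac homeobox factor, of -2.91 and -2.58, each called lower. Dio3, which inactivates thyroid hormone, rose by 2.40 and 3.68, from at most 0.543 CPM in the naive to at least 1.51 CPM in the MI libraries. Of 14 metabolic genes of the fetal pattern 2 rose and 10 fell in control mice and 3 and 9 in Vegfc-deficient mice, with medians of -2.44 and -1.99 that became 0.80 and 0.37 relative to the reference genes. Among them Ucp3, a mitochondrial carrier of muscle, had log2 fold changes of -3.80 and -2.79, Eno3, the muscle enolase, of -3.24 and -3.01, and Cpt1b, the muscle carnitine palmitoyltransferase, of -3.23 and -2.58. Counts of each list are TMM-scaled edgeR calls, for which 50.4% and 57.7% of all genes were called in both directions together. By direction, 3882 of all 14779 genes were called higher and 3568 lower in control mice. In Vegfc-deficient mice 4432 were called higher and 4089 lower. Relative to the reference genes none of the genes in these lists was called lower. Of all 14779 genes, 11 and 32 were called lower on that scale in control and Vegfc-deficient mice, with medians of 3.73 and 2.88. The absence of lower calls is therefore not particular to these lists.

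Between libraries of the same group, the members rose and fell together. Over the 11 libraries, with group means removed, Pearson's r of log2 CPM was 0.95 between Myh6 and Myh7, 0.96 between Myh6 and Ankrd1 and 0.96 between Myh7 and Ankrd1. It was lowest for Nppa, at 0.57 with Acta1 and 0.66 with Ankrd1, and 0.90 with its neighbour Nppb. Among 11438 genes, those most like Myh6 were Hfe2 (r = 0.999), Tmem38a (r = 0.999) and Srl (r = 0.997), and those most like Myh7 were Sh3bgr, Sucla2 and Strip2 (r = 0.993 to 0.996). Those most like Nppa were Nmnat1 (r = 0.98), Gpi1 (r = 0.98) and Vdac2 (r = 0.97), those most like Nppb Taco1, Perp and Ehd4 (r = 0.98 each), those most like Acta1 Anapc13, Mrps14 and Gatb (r = 0.98 each) and those most like Ankrd1 Il15, Idh3b and Ndufs4 (r = 0.99 each). All points share the libraries' cardiomyocyte RNA and depth, so these values are a description.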

How the data were processed

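Stranded mRNA libraries were made from left ventricles, 1 for each of 11 mice. The authors deposited raw read counts for 25006 Ensembl genes per library, without normalization. The submitters' processing notes name cutadapt 1.13, STAR, HTSeq 0.6.1p1, DESeq2 1.14.1 and build mm10, without roles or strand setting. Symbols, coordinates and exon lengths came from GENCODE M21 of GRCm38 (24991 identifiers matched). Groups were taken from the sample labels.

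Counts were tested with edgeR 4.0.16 in R 4.3.3 (filterByExpr, TMM factors, quasi-likelihood test in 1 fit of 11 libraries, Benjamini-Hochberg adjustment over 14779 genes, threshold 0.05), and SE is the log2 fold change over the root of F. The test was repeated with library size set to the summed counts of 8 cardiomyocyte genes. Reads were divided by exon length to compare genes, and the Myh7 to Myh6 ratio was tested by two-sided exact permutation (scipy 1.17.1). Total counts of 10824989 to 26782728 per library set the precision. Alternatives were DESeq2 1.42.0, library totals, no filter, another set of reference genes, a threshold of 0.01, fits of 2 groups and leaving out each library. Scripts were tested on simulated data.

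The members and gene lists were chosen with earlier results of these data known. Named genes were the members, their relatives by locus or family, up to 3 genes of each list with the largest change called in both genotypes, the 3 genes most like each member (mean of at least 5 CPM), Vegfc and Lyz2. Xist and the Y-linked genes were a check of the groups.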

Additional observations from a re-analysis of the deposited data

How the results depend on the processing

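For the single members, 681 values recomputed under the alternatives kept their direction and their side of the threshold, 39 kept their direction but were no longer called, and 36 changed sign, the last all for values that were not called. At an adjusted p under 0.01, 4798 genes and 1 member were called with MI in control mice, 1 member in Vegfc-deficient mice, and 3 members in Vegfc-deficient mice relative to the 8 cardiomyocyte genes. Library totals left 1 member called in Vegfc-deficient mice, and turned Ankrd1 there to 0.48 and the difference in response of Acta1 to 0.0653. Ankrd1 was also at 0.0006 without a filter and 0.0253 in a fit of the compared groups alone, and Myh7 at -0.019 with DESeq2. DESeq2 called 51 genes between the MI genotypes, 14 between the naive genotypes and 55 for the difference in response, and the fit of the naive groups alone called 2. Relative to cardiomyocyte genes, 18 genes differed between the MI genotypes with Myl2, Myl3, Ryr2 and Mb as reference, 47 without a filter and 1 at 0.01. The difference of the linear Myh7 to Myh6 ratio between the MI genotypes was 0.0043.

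Leaving out 1 library at a time, where a group of 2 left with 1 borrows its spread from the other groups, gave 4574 to 7636 genes and 1 to 3 members in control mice (4574 and 4880 genes without M45 and M44), with Acta1 at -1.25 to 0.24. In Vegfc-deficient mice 1 to 3 members were called, with Myh7 at -0.78 to 0.37 and Ankrd1 at -0.48 to 0.25. Between genotypes 0 to 1 gene was called after MI (1 without M006), 0 to 17 in naive hearts (17 without M149, 2 without M40, 1 without M38), with Myh7 at -0.14 to 0.40 and Ankrd1 at -0.0303 to 0.29, and 0 to 1 for the difference in response (1 without each of M38, M40 and M149), with Nppa at -0.66 to 0.68, Nppb at -0.14 to 0.49, Myh7 at -0.0736 to 1.29 and Acta1 at -0.88 to 0.59. Relative to cardiomyocyte genes, 1 to 5 members were called in control and 3 to 5 in Vegfc-deficient mice, and 4 to 37 genes between the MI genotypes, with Nppa at -0.48 to 0.38, Nppb at -0.58 to 0.19, Acta1 at -0.23 to 0.47 and Ankrd1 at -0.0337 to 0.29. The log2 Myh7 to Myh6 ratio between the MI genotypes ranged from -0.29 to 0.22. The cause of these changes was not tested.

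No paired analysis was possible because each library carries the number of its own mouse and no number is shared between groups. Sex, cardiomyocyte content and MI moved together, and 2 naive controls limit every comparison with that group.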
